A study of Mus musculus with 10 samples.

Results

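The clustered histone genes are the replication-dependent histone genes that sit together in a few genomic clusters. They were taken as all genes whose GENCODE M21 symbol matches the pattern Hist1h to Hist4h, with pseudogenes left out. The rule gave 67 genes, of which 64 had an identifier in the deposited count tables and 51 passed the filter on low counts, out of 41091 gene identifiers and 16669 genes tested. The 64 genes were 6 for the linker histone H1, 18 for H2A, 15 for H2B, 12 for H3 and 13 for H4. Of these, 52 carried a Hist1 symbol (chromosome 13), 9 a Hist2 symbol (chromosome 3), 2 a Hist3 symbol (chromosome 11) and 1 a Hist4 symbol (chromosome 6), in the GRCm38 (mm10) build.

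Total RNA was sequenced from cultures of dissociated adult C57BL6 mouse olfactory epithelium, taken 9 days after methimazole, a drug that lesions this epithelium and starts its regrowth. All cultures adhered to gelatin in a NeuroCult proliferation medium with EGF, FGF2 and heparin, and all received a lentiviral short hairpin. The shCTR group (n = 4, libraries 1, 2, 5 and 6) carried a non-targeting scramble hairpin, the shCBX7 group (n = 3, libraries 1, 2 and 5) a hairpin against Cbx7, and the shCBX8 group (n = 3, libraries 1, 2 and 6) a hairpin against Cbx8. Cbx7 and Cbx8 encode chromobox subunits of Polycomb repressive complex 1, which binds methylated histone H3. The labels give neither the sex of the animals nor whether each library had an animal or culture of its own. The p-values therefore measure the spread between these libraries, which may be technical.

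H2A, H2B, H3 and H4 form the core of the nucleosome, and H1 binds the linker DNA. The clustered genes for these proteins are switched on together as cells enter S phase, when new chromatin has to be packed. Their mRNAs are the known exception among animal mRNAs in lacking a poly(A) tail. They end in a short conserved stem-loop, which the stem-loop binding protein Slbp holds and the U7 snRNP helps to cut. Some of these genes also give polyadenylated transcripts with longer 3′ ends. Libraries made from total RNA, as here, are not restricted to polyadenylated RNA.

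The stem-loop is the feature that these mRNAs share. It was found just after the stop codon in the annotated transcripts of 46 of the 67 genes. Another 13 genes had no annotated 3′ UTR, and 8 had one in which the stem-loop was not found. The forms below show how it varied among genes described later. Capitals mark the stem and loop of 16 bases.
Hist1h1c: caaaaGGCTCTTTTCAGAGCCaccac
Hist2h3c2: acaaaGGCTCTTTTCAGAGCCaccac
Hist1h2bf: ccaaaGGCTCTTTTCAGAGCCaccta
Hist1h3c: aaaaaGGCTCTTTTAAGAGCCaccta
Hist1h4d: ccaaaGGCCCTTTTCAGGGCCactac
Hist1h4b: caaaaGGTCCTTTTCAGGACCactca
Hist2h4: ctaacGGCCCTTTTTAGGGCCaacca
The form of Hist1h1c was present in 26 genes, among them 3 H1, 10 H2A, 8 H2B and 5 H3 genes but no H4 gene. All 12 H4 genes with a 3′ UTR carried stems of other letters. In 23 genes the annotated transcript ended within 100 bases of the stem-loop, and in another 23 it ran on farther. In Hist1h1c it ran on for 840 bases and in Hist2h3c2 for 377 bases, whereas in Hist1h2bf it ended 29 bases after the stem-loop.

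Promoter sequences were compared in windows of 250 bases before the start, taken from RefSeq (GRCm38.p6) for 62 of the 67 genes. CCAAT, the box bound by the factor NF-Y, was present on either strand in 82.3% of these windows and in 33.8% of 32851 RefSeq windows. It stood in all windows of H1, H2A and H2B genes, in 80% of 10 H3 windows and in 25% of 12 H4 windows. TATAAA, a core form of the TATA box, was present in 46.8% of the histone windows against 12.4% of all windows. ATTTGCAT, the octamer that Oct-1 (Pou2f1) binds, was present in 38.9% of 18 H2A windows and 37.5% of 16 H2B windows, in no H1, H3 or H4 window, and in 1.60% of all windows. The windows of Hist1h2ac (chr13:23683960-23684209, minus strand) and Hist1h2ai (chr13:21716162-21716411, plus strand) are shown because each lies between an H2A gene and an H2B gene that face away from each other. Capitals mark matches to these 3 motifs on either strand. The octamer stands as its reverse complement in the window of Hist1h2ac and is not in that of Hist1h2ai.
Hist1h2ac: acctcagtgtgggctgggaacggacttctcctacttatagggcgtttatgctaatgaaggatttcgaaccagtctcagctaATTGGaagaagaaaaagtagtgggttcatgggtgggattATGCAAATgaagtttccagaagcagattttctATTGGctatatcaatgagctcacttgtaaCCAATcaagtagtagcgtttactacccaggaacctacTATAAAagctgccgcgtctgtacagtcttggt
Hist1h2ai: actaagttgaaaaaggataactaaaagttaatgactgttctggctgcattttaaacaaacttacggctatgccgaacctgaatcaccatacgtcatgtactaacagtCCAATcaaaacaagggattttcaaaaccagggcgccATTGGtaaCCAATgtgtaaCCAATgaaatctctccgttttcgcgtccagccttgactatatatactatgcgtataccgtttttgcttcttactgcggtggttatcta
These matches describe letters in the windows and were not tested for binding.

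Depth was 22763014 to 50463172 gene counts per library, of which 14715 to 38090 fell on the clustered histone genes. Normalised read counts (CPM) below are scaled by edgeR's TMM factors. On the strand opposite to the histone genes lay 0.624% to 1.02% of their counts. Cbx8, the gene targeted in the shCBX8 libraries, fell from 12.3 ± 2.55 CPM in shCTR (SD, n = 4) to 4.95 ± 0.219 CPM (SD, n = 3), with an adjusted p of 0.0042 by edgeR's quasi-likelihood test. Cbx7 was at 17.7, 16.4, 13.5 and 5.30 CPM in shCTR libraries 1, 2, 5 and 6 and at 3.64, 8.02 and 13.1 CPM in the libraries labelled shCBX7, with an adjusted p of 0.929, so its level did not check the shCBX7 label. Of the 6 horizontal basal cell markers all were detected. Of 6 markers of globose basal cells and neuronal progenitors 3 stayed below 1 CPM in all libraries, among them Neurog1 and Neurod1, while Sox2 reached 68.5 CPM, Lgr5 13.8 CPM and Kit 5.27 CPM. Of 5 markers of mature olfactory neurons 2 (Omp and Cnga2) stayed below 1 CPM, while Adcy3 stood at 15.8 to 58.0 CPM. The 8 fibroblast markers summed to 5635 to 32618 CPM in shCTR, 5401 to 18186 CPM in shCBX7 and 194 to 2956 CPM in shCBX8, and none was at 0. The globose basal cell and progenitor markers went the other way, from 4.26 to 22.0 CPM in shCTR to 36.0 to 83.7 CPM in shCBX8. All other marker sets overlapped between shCBX8 and shCTR, among them smooth muscle and pericyte markers (1735 to 5527 and 529 to 1812 CPM). In bulk samples, fewer cells of a type and less RNA per cell cannot be told apart. Library shCBX8 2 stood apart from the other shCBX8 libraries, with the highest fibroblast sum of the 3 and the highest level of the 3 in 32 of the 37 tested histone genes whose estimate was below 0 against shCTR.

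The counting itself limits some histone genes, because reads that map to several places are not assigned to a gene in tables of this kind. For the median histone gene, 54.1% of its 50-base windows also occurred in transcripts of another gene. The median share was 1.13% for H1 genes, 39.5% for H4, 46.9% for H2B, 62.0% for H3 and 73.0% for H2A. Hist2h2aa1 and Hist2h2aa2 have identical coding sequences, as do Hist1h2ao and Hist1h2ap, Hist1h2bq and Hist1h2br, and Hist1h4m and Hist1h4n. All 8 of these genes had too few counts to be tested, from 0 in Hist2h2aa1 to 79 in Hist1h4m over all libraries. Values of genes with near-identical copies are therefore uncertain. Shared windows were counted on either strand, and genes that overlap at the same place were not left out. The shares therefore do not tell copies from overlaps. Which of these applies to Hist2h3b, in which 100% of windows were shared, was not tested.

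Among the H1 genes, Hist1h1c, which encodes a linker histone found in most tissues, was the most abundant histone gene of all by CPM. It reached 175, 147, 85.4 and 80.4 CPM in shCTR 1, 2, 5 and 6, then 83.5, 170 and 128 CPM in shCBX7 1, 2 and 5, and 138, 81.9 and 163 CPM in shCBX8 1, 2 and 6. The groups overlapped, with high and low libraries in each. Hist1h1d stood at 27.0 to 54.6 CPM in shCTR, 44.0 to 53.8 in shCBX7 and 28.5 to 39.9 in shCBX8, and Hist1h1e at 26.3 to 48.7, 35.0 to 51.1 and 27.9 to 41.3 CPM. The testis form Hist1h1t had 45 counts in all and was not tested.

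Per kilobase of annotated exon, the highest mean levels over the 10 libraries were 90.9 CPM per kb for Hist1h2bc, 87.1 for Hist1h4h, 80.3 for Hist1h1c and 57.9 for Hist1h4d. The lowest tested gene of each type stood far below them, from 1.14 CPM per kb in H2B to 5.43 CPM per kb in H1. These values depend on the annotated length. The H1 gene was Hist1h1d, at a mean of 40.3 CPM but with 7425 bases of annotated exon. The H2A gene, at 2.14 CPM per kb, was Hist1h2ac, with 2482 bases. The type medians were 4.07 CPM per kb for H2A, 7.84 for H3, 9.48 for H2B, 20.7 for H4 and 20.7 for H1. H2A genes, with the largest median share of shared windows, had the lowest median level. The part of shared sequence and of annotated length in these levels was not tested.

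Summed over all 64 genes, the histone mRNAs made up 925, 737, 724 and 563 CPM in shCTR 1, 2, 5 and 6, then 802, 998 and 791 CPM in shCBX7 1, 2 and 5, and 739, 692 and 774 CPM in shCBX8 1, 2 and 6. The shCTR libraries spanned the whole range of the shCBX8 libraries. All 3 shCBX7 libraries lay above all 3 shCBX8 libraries, with a ratio of group means of 0.851 for shCBX8 against shCBX7. H1 genes gave 25.6% to 35.2% of the sum in each library, H4 genes 24.1% to 31.4%, H2B genes 21.1% to 30.7%, H3 genes 7.33% to 11.3% and H2A genes 7.08% to 10.3%.

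**Figure D1:**
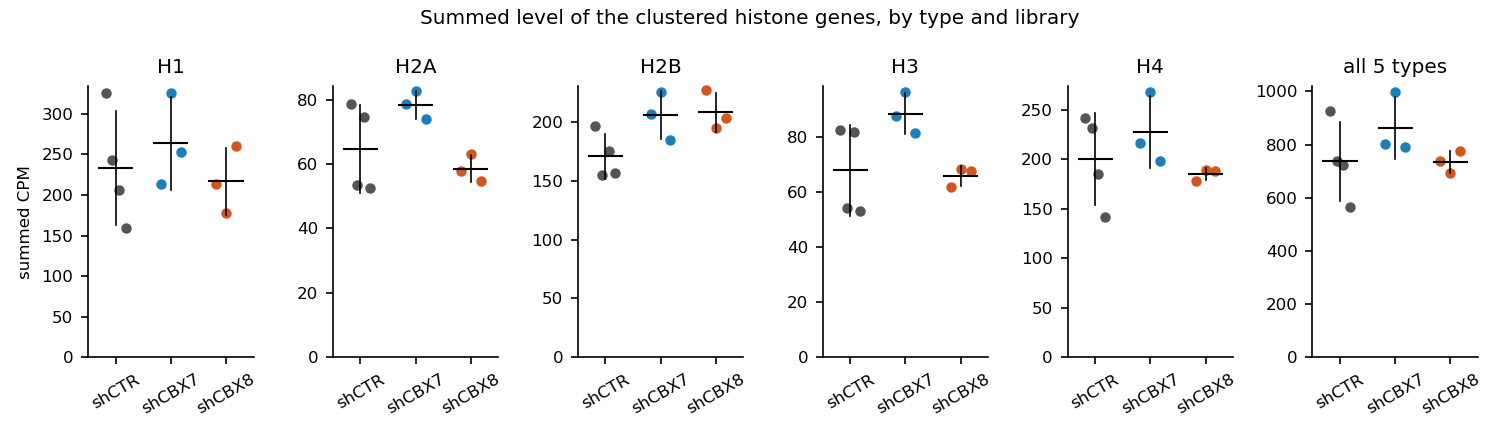
Summed CPM of the clustered histone genes of each type, and of all types, in each library (points), with the group mean (horizontal line) and 1 SD (vertical line). The 3 shCBX8 libraries lie below the 3 shCBX7 libraries for H2A, H3, H4 and the total, but not for H1 or H2B, and overlap with shCTR throughout.

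The H2B sum behaved unlike the H2A sum. It was 171 ± 19.2 CPM in shCTR (SD, n = 4), 206 ± 20.4 in shCBX7 (SD, n = 3) and 208 ± 16.7 in shCBX8 (SD, n = 3), whereas the H2A sum was 64.8 ± 13.7, 78.4 ± 4.26 and 58.6 ± 4.24 CPM. One gene, Hist1h2bc, carried much of the H2B sum. Without it the H2B sum was 66.4 to 107 CPM in shCTR, 98.5 to 115 CPM in shCBX7 and 60.9 to 78.4 CPM in shCBX8, so that the other H2B genes together were lower in every shCBX8 library than in any shCBX7 library.

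The comparison of shCBX8 with shCTR asked what the Cbx8 hairpin changed. Most histone genes had estimates below 0, but few passed the test. Of the 51 tested genes, 5 passed an adjusted p of 0.05 (edgeR's quasi-likelihood test, Benjamini-Hochberg adjustment over all genes), 2 of them higher and 3 lower in shCBX8. This is 9.80% of the histone genes, against 32.9% of all genes tested. By direction, 3.92% were higher (17.0% of all genes) and 5.88% lower (15.9% of all genes). The median log2 fold change was -0.49 for the histone genes and -0.01 for all genes, and 37 of the 51 estimates were negative. With scaling by library size alone, which moved the median of all genes to 0.17, the 6 calls divided into 4 higher and 2 lower. Single libraries moved the count of calls. It was 1 without shCBX8 1 or without shCBX8 6, 8 without shCTR 2, 12 without shCTR 6 and 20 without shCBX8 2. Calls among all genes, 5478 of 16669 in the main fit, moved too. They were 2261 of 17212 without shCBX8 1, 2279 of 17202 without shCBX8 6 and 6193 of 17405 without shCBX8 2. They were 4277 of 16415 without shCTR 2 and 5309 of 16583 without shCTR 6.

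Hist1h2bc, a gene for H2B, was the histone gene with the smallest p. It was at 88.8, 82.6, 74.2 and 90.3 CPM in shCTR 1, 2, 5 and 6, at 97.1, 111 and 86.3 CPM in shCBX7 1, 2 and 5, and at 162, 116 and 142 CPM in shCBX8 1, 2 and 6. All 3 shCBX8 libraries lay above all other libraries. It rose by 0.74 on the log2 scale (SE 0.14, adjusted p = 0.0062 by edgeR), and stayed past the threshold in all 21 alternative settings, with an adjusted p of at most 0.0431. Its annotated gene reaches from 23684199 to 23692908 on chromosome 13, plus strand, with a 3′ UTR of 742 bases in which no stem-loop was found.

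Hist2h3c2, a gene for H3 in the Hist2 cluster (chr3:96238108-96239127, minus strand), also rose. Its levels were 2.49, 1.45, 3.06 and 2.91 CPM in shCTR 1, 2, 5 and 6, then 2.91, 2.44 and 3.92 CPM in shCBX7 1, 2 and 5, and 6.64, 3.97 and 8 CPM in shCBX8 1, 2 and 6. The shCBX8 libraries were the 3 highest, with shCBX8 2 close to shCBX7 5. The log2 fold change against shCTR was 1.32 (SE 0.34, adjusted p = 0.0178 by edgeR). It did not pass without shCBX8 1 (1.27, adjusted p = 0.0649), without shCBX8 6 (1.10, adjusted p = 0.0803), or without shCTR 1 and 2 together (1.04, adjusted p = 0.0943). Its sequence was shared with other genes in 63.5% of windows.

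Hist1h2ai, a gene for H2A, was the lower gene with the smallest p. It was at 3.84, 3.41, 3.70 and 3.11 CPM in shCTR 1, 2, 5 and 6, at 4.72, 4.99 and 4.26 CPM in shCBX7 1, 2 and 5, and at 1.47, 2.41 and 1.27 CPM in shCBX8 1, 2 and 6. The 3 groups did not overlap. The gene fell by 1.04 on the log2 scale against shCTR (SE 0.26, adjusted p = 0.0171 by edgeR). It missed the threshold without shCBX8 1 (-0.93, adjusted p = 0.0787), without shCBX8 6 (-0.85, adjusted p = 0.0764), or without shCTR 1 and 2 together (-1.01, adjusted p = 0.0754). Its sequence was shared with other genes in 90.1% of windows.

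Hist2h4, a gene for H4 with little shared sequence (1.01% of windows), was at 13.3, 12.1, 12.6 and 8.95 CPM in shCTR 1, 2, 5 and 6, at 10.6, 12.2 and 11.5 CPM in shCBX7 1, 2 and 5, and at 5.80, 8.54 and 4.99 CPM in shCBX8 1, 2 and 6. The shCBX8 libraries were the 3 lowest, although shCBX8 2 lay close to shCTR 6. The gene fell by 0.87 on the log2 scale (SE 0.22, adjusted p = 0.0191 by edgeR). This call ended without shCBX8 1 (-0.79, adjusted p = 0.0816), without shCBX8 6 (-0.70, adjusted p = 0.0822), or without shCTR 1 and 2 together (-0.76, adjusted p = 0.0982). Hist2h3b, an H3 gene near it on chromosome 3, was at 1.20 to 2.03 CPM in shCTR and at 0.566, 1.08 and 0.344 CPM in shCBX8 1, 2 and 6. It fell by 1.29 (SE 0.39, adjusted p = 0.0333 by edgeR), and missed the threshold without shCTR 1 (-1.27, adjusted p = 0.0622), shCTR 5 (-1.17, adjusted p = 0.0744), shCBX8 1 (-1.18, adjusted p = 0.123) or shCBX8 6 (-0.97, adjusted p = 0.112). In all, its call was lost in 9 of 20 alternative settings, the other 5 giving adjusted p-values of 0.0505 to 0.0826.

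**Figure D2:**
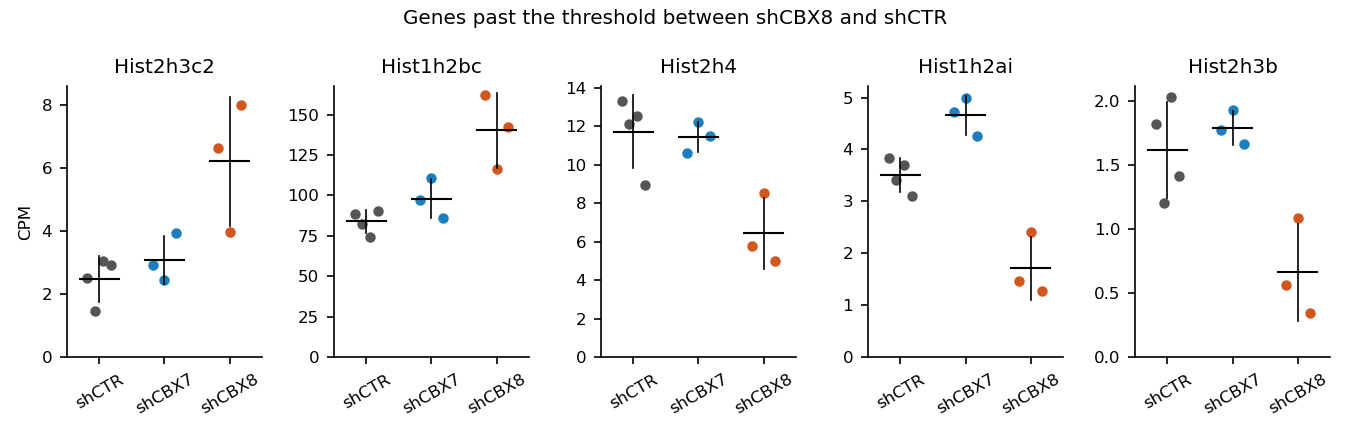
CPM of the 5 histone genes past the threshold between shCBX8 and shCTR in each library (points), with group mean and 1 SD; each panel has its own axis from 0. The shCBX8 points lie beyond all shCTR points in each panel, with shCBX8 2 nearest to shCTR, and in Hist1h2bc they run from 116 to 162 CPM. The genes shown were picked by this same comparison. Of 51 tested histone genes, 3.92% lay higher and 5.88% lower without overlap, against 22.9% and 19.5% of all genes.

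Of the 5 calls, 3 were among the 6 tested Hist2 genes and 2 among the 43 tested Hist1 genes, where 32.9% of all genes passed; the difference between the clusters was not tested. Hist2h2ac (H2A) was next in order, at 9.04 to 17.4 CPM in shCTR, 13.8 to 15.6 in shCBX7 and 6.39 to 11 in shCBX8. Its log2 fold change against shCTR was -0.76 (SE 0.26, adjusted p = 0.0514 by edgeR). It passed in 7 of 21 alternative settings, among them the library number as a block (-0.66, adjusted p = 0.0481). Hist2h2ab (H2A), beside it on the opposite strand, had -0.84 (SE 0.30, adjusted p = 0.0547). Hist1h2bf (H2B) had -1.15 (SE 0.42, adjusted p = 0.0592), at 1.10 to 2.85 CPM in shCTR, while shCBX8 1, 2 and 6 had 0.629, 1.35 and 0.645 CPM. Of the 21 settings, Hist2h2ab passed in 3 and Hist1h2bf in 4.

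On the higher side, the estimate for Hist1h4i (H4) was 0.70 (SE 0.25, adjusted p = 0.0583 by edgeR), with 7.33 to 12.1 CPM in shCTR and 11.5 to 18.3 CPM in shCBX8. Hist3h2a (H2A, on chromosome 11) had 0.40 (SE 0.17, adjusted p = 0.0956), Hist1h2ab (H2A) 0.61 (SE 0.27, adjusted p = 0.108) and Hist1h3b (H3) 0.57 (SE 0.26, adjusted p = 0.12). In each of these 4 genes the groups overlapped. Hist1h4i passed in 6 of the 21 alternative settings and Hist3h2a in 1. Among the other abundant genes beside Hist1h2bc, estimates were 0.07 for Hist1h1c, -0.21 for Hist1h4d, 0.36 for Hist1h4h, -0.23 for Hist1h1d and -0.17 for Hist1h1e, and none of these 5 passed. The sign of those for Hist1h1c, Hist1h4d and Hist1h1e changed with some of the settings tried.

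By type, the median log2 fold change against shCTR was -0.23 for 5 H1 genes, -0.68 for 13 H2A genes, -0.52 for 11 H2B genes, -0.23 for 11 H3 genes and -0.25 for 11 H4 genes. One gene each passed in H2A, H2B and H4, 2 in H3 and none in H1, where 0 also reached an unadjusted p of 0.05. Differences between the types were not tested. Genes with a stem-loop and a long annotated 3′ end had a median of -0.21 (19 tested), those with a stem-loop and a short end -0.35 (16 tested), and those with no stem-loop in the annotated transcript -0.75 (16 tested). The last group is mostly genes annotated by their coding sequence alone.

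**Figure D3:**
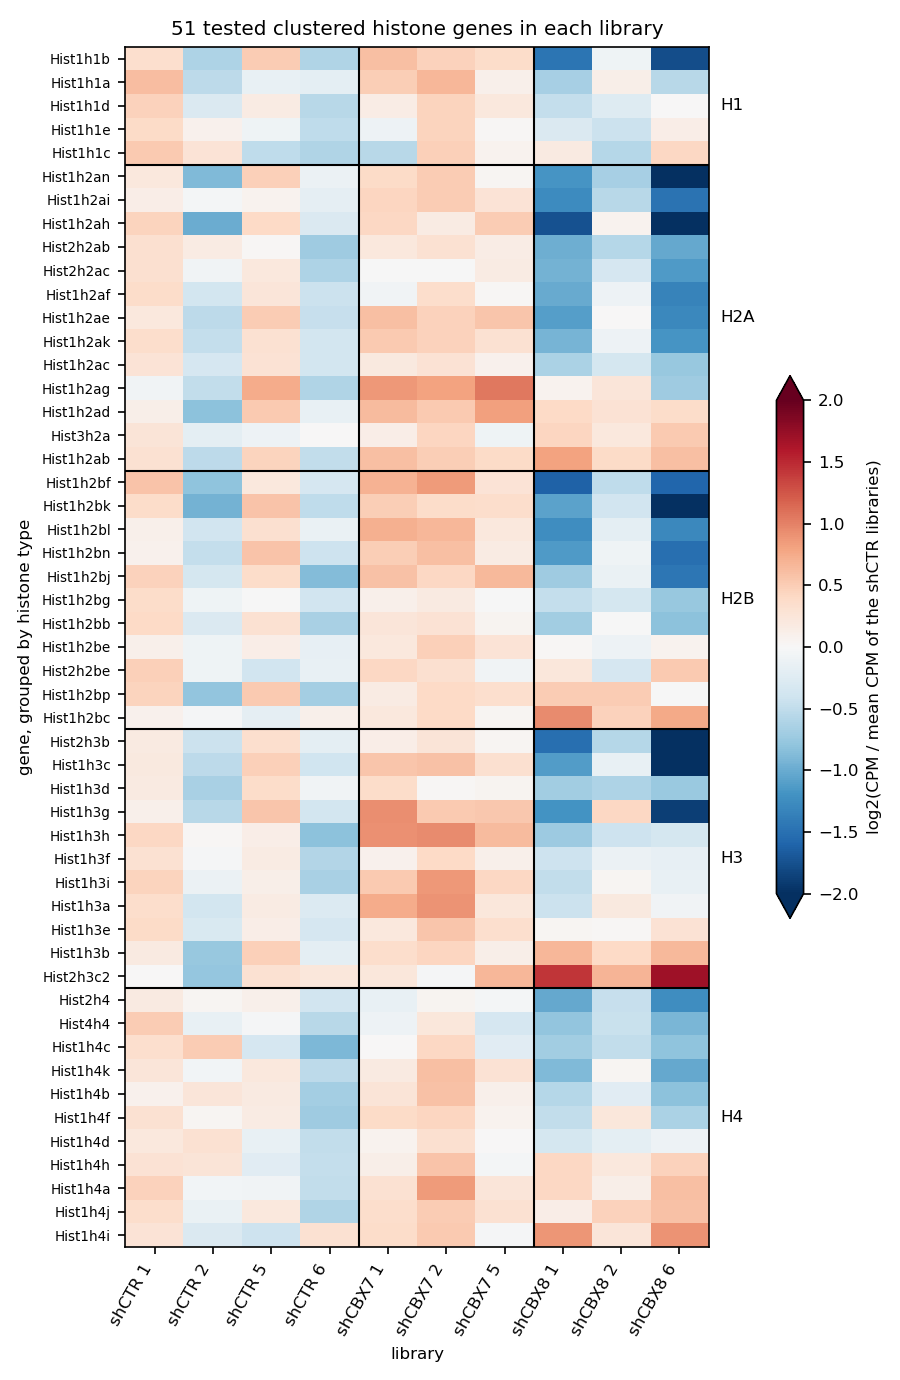
Level of the 51 tested histone genes in each library, as log2 of CPM over the mean CPM of the 4 shCTR libraries (colour, cut at -2 and 2), by type and, within a type, by the shCBX8 against shCTR estimate. Blue is most frequent in shCBX8 1 and 6 and paler in shCBX8 2, and Hist1h2bc and Hist2h3c2 are red in all 3 shCBX8 libraries.

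The comparison of shCBX7 with shCTR gave small positive estimates for nearly all histone genes and no call. Of the 51 genes, 0 passed the threshold, as did 0.00% of all 16669 genes by edgeR. DESeq2 called 91 genes in all and 0 histone genes. Estimates were positive for 49 of 51 histone genes, with a median of 0.32 and a range of -0.05 to 0.91, while 50% of all genes had a positive estimate and the median of all genes was 0.00. Positive estimates were as frequent in 2 lists described below, with 40 of 45 S-phase genes (median 0.24) and 19 of 20 proliferation genes (median 0.30). At an unadjusted p below 0.05, 4 histone genes (7.84%) were higher, against 1.01% of all genes, and 0 were lower, against 4.84%. In 5 genes (9.80%) all shCBX7 libraries lay above all shCTR libraries, against 1.70% of all genes, and in 0 genes below them, against 3.73%.

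Hist1h3h, an H3 gene, had the smallest p in that comparison. It was at 3.72, 2.86, 3.06 and 1.58 CPM in shCTR 1, 2, 5 and 6, and at 5.29, 5.38 and 4.35 CPM in shCBX7 1, 2 and 5, without overlap. Its log2 fold change was 0.84 (SE 0.29, adjusted p = 0.661 by edgeR). Hist1h2ag (H2A) had 0.91 (SE 0.38, adjusted p = 0.795), Hist1h2ad (H2A) 0.66 (SE 0.30, adjusted p = 0.864), Hist1h3a (H3) 0.65 (SE 0.27, adjusted p = 0.805), Hist1h3i (H3) 0.61 (SE 0.27, adjusted p = 0.853) and Hist1h2be (H2B) 0.32 (SE 0.13, adjusted p = 0.753). Hist1h2be overlaps Hist1h1e on the same strand, where reads cannot be assigned to either. The estimates below 0 were those of Hist4h4 (-0.05) and Hist2h4 (-0.03), both H4 genes, and both signs changed with some settings.

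The comparison of shCBX8 with shCBX7 set the hairpins against each other and shared its libraries with the comparisons above. More histone genes passed here, nearly all lower in shCBX8. Of the 51 genes, 16 passed (31.4%, against 28.6% of all genes), 1 of them higher (1.96%, against 15.3%) and 15 lower (29.4%, against 13.3%). The median log2 fold change was -0.77 for the histone genes and 0.00 for all genes. At an unadjusted p below 0.05, 30 genes were lower, against 20.3% of all genes, and 2 higher, against 22.4%. In 35 genes (68.6%) all shCBX8 libraries lay below all shCBX7 libraries, against 22.6% of all genes, and in 2 genes (3.92%) above them, against 25.6%. Of the 20 proliferation genes described below, 20 had negative estimates (median -1.15), and 19 (95%) lay lower without overlap. Of the 45 S-phase genes, 26 had negative estimates (median -0.15), with 9 (20%) lower and 9 (20%) higher without overlap.

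The number of calls in that comparison rested on single libraries. It was 1 without shCBX8 1 or without shCBX8 6, 3 without shCBX7 1 or without shCBX7 2, 5 without shCBX7 5, 10 without shCTR 1 and 28 without shCBX8 2. With the library number as a block it was 3. Calls among all genes were 4762 of 16669 in the main fit and 4661 of 16669 with the block. They were 1848 of 17212 without shCBX8 1, 1784 of 17202 without shCBX8 6 and 6005 of 17405 without shCBX8 2. They were 2730 of 17435 without shCBX7 1, 2900 of 17444 without shCBX7 2 and 4325 of 17426 without shCBX7 5. Without shCTR 1 they were 4158 of 16383. Hist1h2ai passed in all 21 alternative settings, with an adjusted p of at most 0.0404. None of these settings counted reads that map to several places, and 90.1% of the windows of Hist1h2ai were shared with other genes. The median estimate of the 51 genes stayed between -0.91 and -0.61 in all 21 settings.

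Hist1h2ai (H2A) fell by 1.44 on the log2 scale against shCBX7 (SE 0.28, adjusted p = 0.0078 by edgeR), from 4.26 to 4.99 CPM in shCBX7 to 1.27 to 2.41 CPM in shCBX8. Hist1h3h (H3) fell by 1.32 (SE 0.32, adjusted p = 0.016), with 1.70, 2.10 and 2.19 CPM in shCBX8 1, 2 and 6. Hist1h2bf (H2B) fell by 1.77 (SE 0.44, adjusted p = 0.0183), from 2.33 to 3.48 CPM in shCBX7 to 0.629 to 1.35 CPM in shCBX8. Each of these genes had no overlap between shCBX7 and shCBX8. Hist1h2bl (H2B) fell by 1.37 (SE 0.35, adjusted p = 0.0205), Hist2h4 (H4) fell by 0.83 (SE 0.24, adjusted p = 0.0294) and Hist2h3b (H3) fell by 1.44 (SE 0.41, adjusted p = 0.0299). Windows shared with other genes were 93.9% in Hist1h3h, 65.8% in Hist1h2bf and 82.8% in Hist1h2bl.

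The other lower genes were Hist2h2ab, Hist1h2ak, Hist1h2an and Hist1h2ac (H2A), Hist1h2bn (H2B), Hist1h3d and Hist1h3c (H3), Hist1h4b (H4) and Hist1h1b (H1), with adjusted p-values from 0.0323 to 0.0497. By type, 5 of 13 H2A genes, 3 of 11 H2B genes, 4 of 11 H3 genes, 2 of 11 H4 genes and 1 of 5 H1 genes passed as lower. Hist1h2bc was the gene that passed as higher, at 0.52 (SE 0.15, adjusted p = 0.0324 by edgeR). That call was lost in 10 of 21 alternative settings, among them the block on library number (0.41, adjusted p = 0.0844), no low-count filter (0.48, adjusted p = 0.0925), and the fits without shCTR 1 (0.49, adjusted p = 0.0544), shCBX7 1 (0.47, adjusted p = 0.105), shCBX7 2 (0.57, adjusted p = 0.0502), shCBX7 5 (0.42, adjusted p = 0.0965), shCBX8 1 (0.40, adjusted p = 0.129) or shCBX8 6 (0.50, adjusted p = 0.099). Hist2h3c2 had 1.01 (adjusted p = 0.0631), Hist1h4i 0.40 (adjusted p = 0.29), Hist1h3b 0.27 (adjusted p = 0.501), Hist3h2a 0.22 (adjusted p = 0.371) and Hist1h4h 0.13 (adjusted p = 0.705).

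**Figure D4:**
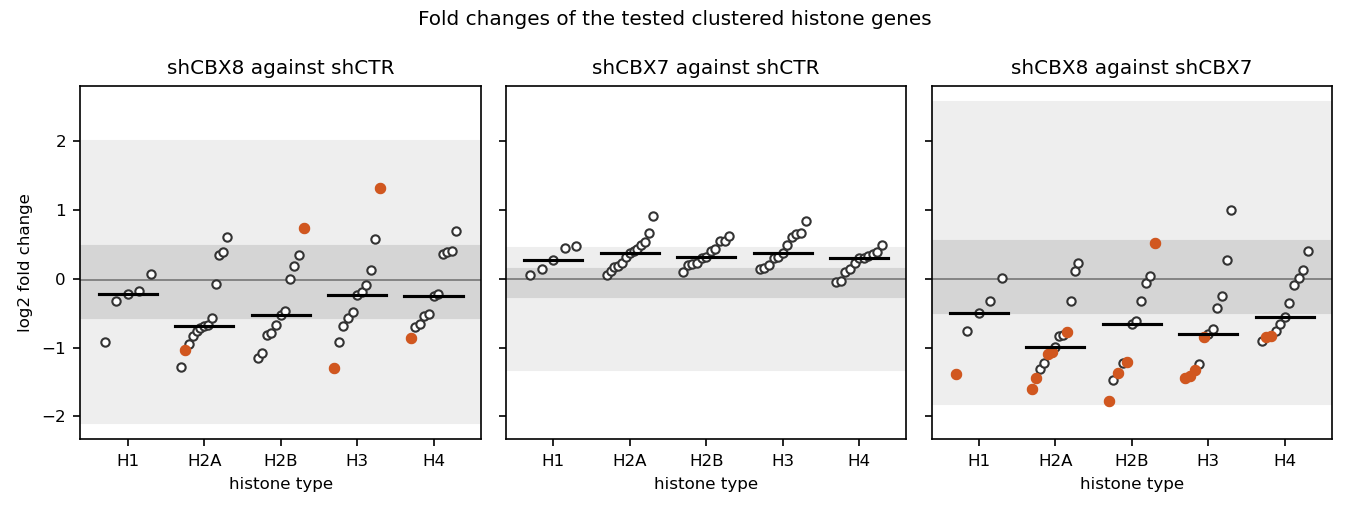
Log2 fold change of each tested histone gene (circles; filled where the adjusted p is below 0.05) by type in the 3 comparisons, with the type median (black line), the median of all genes (grey line) and their 25th to 75th and 5th to 95th percentiles (dark and light bands). Histone estimates sit mostly below 0 against either other group in shCBX8 and mostly above 0 in shCBX7 against shCTR.

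Among the clustered genes, 12 pairs of an H2A and an H2B gene start within 500 bases of each other and face apart, so that they share an upstream region. Both members were tested in 9 pairs. In shCBX8 against shCTR both estimates were negative in 5 pairs and of opposite sign in 4. In shCBX7 against shCTR both were positive in all 9, and in shCBX8 against shCBX7 both were negative in 7 and opposite in 2. The pair Hist1h2bl and Hist1h2ai, 278 bases apart and sharing the window printed above, had -0.82 (adjusted p = 0.0822) and -1.04 (adjusted p = 0.0171) against shCTR by edgeR.

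Hist1h2ac and Hist1h2bc, 250 bases apart, differed in direction. Hist1h2ac was at 6.77, 4.46, 6.87 and 4.38 CPM in shCTR 1, 2, 5 and 6, at 6.45, 6.83 and 5.99 CPM in shCBX7 1, 2 and 5, and at 3.62, 4.39 and 3.31 CPM in shCBX8 1, 2 and 6. All shCBX8 libraries lay below all shCBX7 libraries and overlapped narrowly with shCTR. Its log2 fold change was -0.57 against shCTR (SE 0.23, adjusted p = 0.0862 by edgeR) and -0.77 against shCBX7 (SE 0.25, adjusted p = 0.0453), where Hist1h2bc had 0.74 and 0.52. Opposite signs against shCTR were also found for Hist2h2ac (-0.76) and Hist2h2be (0.18), Hist1h2an (-1.29) and Hist1h2bp (0.35), and Hist1h2bf (-1.15) and Hist1h2ad (0.34), in which none of the 6 genes passed. Differences within pairs were not tested.

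**Figure D5:**
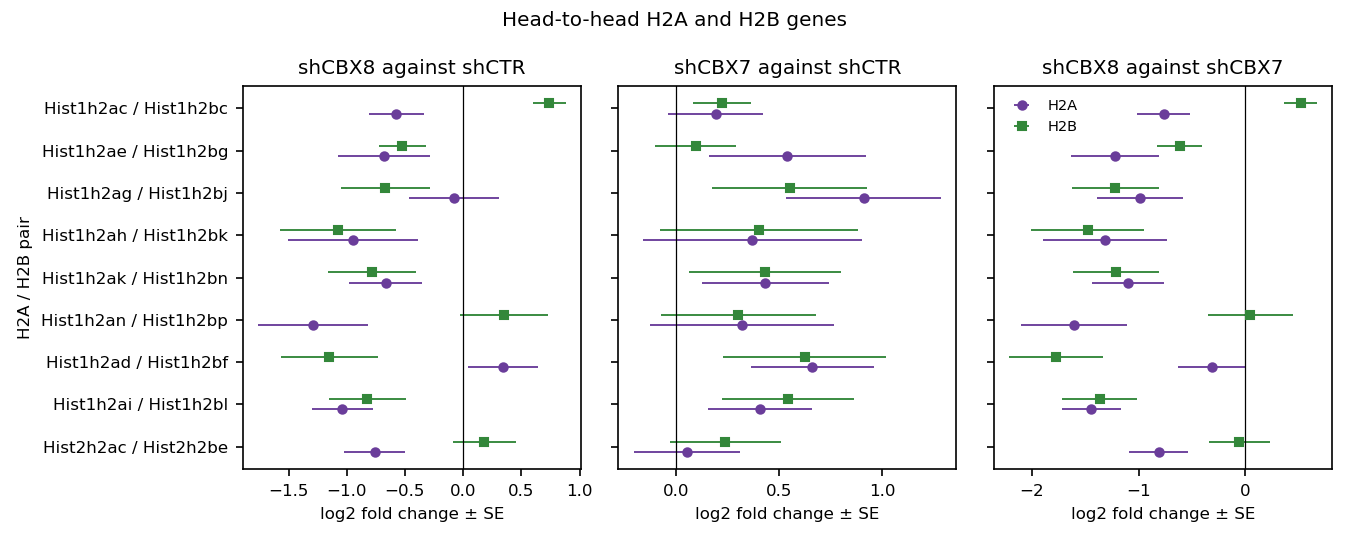
Log2 fold change with SE of the H2A gene (circles) and the H2B gene (squares) of the 9 head-to-head pairs with both genes tested, in the 3 comparisons. Hist1h2ac and Hist1h2bc lie on opposite sides of 0 in both comparisons with shCBX8, while all pairs lie above 0 in shCBX7 against shCTR.

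The genes that make and process histone mRNA were counted from a list of 24, of which 23 were tested. In shCBX8 against shCTR 3 rose (13.0%, against 17.0% of all genes) and 2 fell (8.70%, against 15.9%). Cstf2, a cleavage factor subunit, rose from 47.4 ± 12.8 CPM (SD, n = 4) to 125 ± 20.6 CPM (SD, n = 3), by 1.39 on the log2 scale (SE 0.24, adjusted p = 0.0044 by edgeR). Eri1, an exonuclease that trims the histone stem-loop, rose by 0.65 (SE 0.11, adjusted p = 0.0050), and Coil, the Cajal body protein coilin, by 0.43. Cdk2, the S-phase kinase that phosphorylates the histone gene activator Npat, fell by 0.86 (SE 0.18, adjusted p = 0.0095). Pou2f1, which encodes Oct-1, fell by 1.85 from a level below 1 CPM. Slbp itself had 0.12 (adjusted p = 0.453) and Npat 0.44 (adjusted p = 0.0609). In shCBX7 against shCTR 0 of the 23 passed by edgeR, with 0 at an unadjusted p below 0.05.

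Genes of DNA replication and of mitosis are given beside the histone genes, since histone mRNA is made in S phase. Of 45 S-phase genes, 7 rose (15.6%, against 17.0% of all genes) and 0 fell (against 15.9%) in shCBX8 against shCTR. Those that rose included Pcna (0.52, adjusted p = 0.0195 by edgeR), the replication clamp, and Rfc1 (0.53, adjusted p = 0.0051), a subunit of its loader. Of 20 proliferation genes, mostly of mitosis, 0 passed by edgeR, 5 were lower at an unadjusted p below 0.05 (25%, against 22.6% of all genes) and 19 estimates were negative, with a median of -0.81. Their summed level was 674, 234, 530 and 349 CPM in shCTR 1, 2, 5 and 6, then 550, 600 and 466 CPM in shCBX7 1, 2 and 5, and 265, 379 and 148 CPM in shCBX8 1, 2 and 6. Mki67, a marker of cycling cells, had -1.58 against shCTR (adjusted p = 0.0543) and fell by 1.76 against shCBX7 (adjusted p = 0.0494). The part of the share of cycling cells, and of the fibroblast and other marker sums, in the histone values was not tested.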

How the data were processed

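RNA was measured in 10 libraries (stranded total RNA, 500 ng of input, per the labels' protocols). Reads were processed with bcl2fastq 2.17, Trim Galore 0.4.3 and STAR 2.5.0a, per the submitters' processing notes, which name the build mm10. Which annotation release was counted is not stated there. The authors deposited raw read counts per gene for each strand setting, and the reverse-strand count was used, which fits the direction of the annotated genes. Reads assigned to no gene stayed out of library sizes (5.03% to 21.7% unmapped, 15.4% to 22.1% mapped to several places, 12.5% to 23.6% outside genes on that strand and 0.290% to 0.637% ambiguous per library). Unmapped reads were 9.83% to 21.7% in shCTR, 5.03% to 6.20% in shCBX7 and 7.28% to 7.81% in shCBX8. Reads outside genes were 20.4% to 23.6%, 12.5% to 15.0% and 15.4% to 18.6%. In both, every shCTR library lay above every other library. The same held for Gm10800, a gene that took 1.96% to 10.4% of gene counts in shCTR. It took 0.737% to 1.00% in shCBX7 and 1.12% to 1.51% in shCBX8. Gene counts on the opposite strand were 6.34% to 10.4% in shCTR, 3.42% to 3.96% in shCBX7 and 3.57% to 7.75% in shCBX8. In comparisons with shCTR, the hairpin and these shares cannot be told apart.

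Symbols came from GENCODE M21 (40217 of 41091 identifiers matched). edgeR 4.0.16 (R 4.3.3) fitted its quasi-likelihood model to all 10 libraries by group, with TMM scaling, filterByExpr at a count minimum of 10, and Benjamini-Hochberg adjustment over 16669 genes at 0.05. Genes at 0 counts allow up to 0.0629 to 0.150 CPM per library (3 counts; counting error only). The method was tested on simulated data with independent libraries, which cannot test dependence between libraries. DESeq2 1.42.0, other scalings, filters and strand settings, and leaving out libraries were alternatives. Within-group library pairs differed beyond sampling noise, with a chi-square per degree of freedom of 27.8 between shCBX8 1 and 6. All other pairs gave 102 to 406. Whether shCBX8 1 and 6 came from separate cultures is not stated. In either comparison of shCBX8, the count of histone calls was 1 without shCBX8 1 or without shCBX8 6. Calls among all genes were then 2261 and 2279 against shCTR, and 1848 and 1784 against shCBX7. The design text gives 3 replicates per treatment and the labels 4 shCTR libraries.

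Replicate numbers come from the sample titles. Deviations from the group means correlated at 0.226, 0.294 and 0.126 between same-numbered shCTR and shCBX8 libraries (1, 2 and 6). Between same-numbered shCTR and shCBX7 libraries (1, 2 and 5) they correlated at -0.07, 0.758 and 0.411. Whether the numbers pair samples was not tested. The main fit used the groups alone, and the library number entered only the alternative setting that took it as a block.

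The members and lists were chosen with earlier results of these data known. Genes named are the 3 most abundant of each type, the 6 with the smallest p in each direction of each comparison, the genes that passed, and those in head-to-head pairs; of other lists, those with the smallest p against shCTR. Slbp and Npat were named for their role.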

Additional observations from a re-analysis of the deposited data

How the results depend on the processing

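Against shCTR, 5 histone genes passed in shCBX8, and the count was 15 with DESeq2, 1 without shCTR 1 and 2 together, 1 at a threshold of 0.01, and 1 to 20 with 1 library left out. Against shCBX7, 16 passed in shCBX8, and the count was 7 with library size only, 10 with no low-count filter, 27 with DESeq2, 9 with forward-strand counts subtracted, 8 with only the 2 groups compared, 1 at a threshold of 0.01, and 1 to 28 with 1 library left out. With 1 library left out, calls among all genes ran from 2261 to 6193 against shCTR and from 1784 to 6005 against shCBX7. With DESeq2 they were 6796 and 6252 of 16581, and 1844 and 1350 of 16669 at a threshold of 0.01. Without shCTR 1 and 2 together they were 2409 of 16900 against shCTR. Against shCBX7, library size only gave 4631, no low-count filter 3905, forward-strand counts subtracted 3999 and only the 2 groups 3677. A replicate block gave 6 histone calls against shCTR and 3 against shCBX7, where the numbers join only 2 libraries a group. In shCBX7 against shCTR the count of histone calls was 0 in all settings, the block included. Median estimates kept their sign in the 21 settings (-0.63 to -0.29 for shCBX8 against shCTR, 0.26 to 0.43 for shCBX7 against shCTR, -0.91 to -0.61 for shCBX8 against shCBX7). The cause of these shifts was not tested.

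Estimates near 0 that had not passed changed sign. In shCBX8 against shCTR, Hist1h2be became 0.179 with library size only, 0.0289 with no low-count filter, 0.0176 with a mean of at least 1 CPM, 0.0718 with unstranded counts and 0.016 with the replicate block. Hist1h1e became 0.0201 with library size only and 0.0942 without shCTR 1 and 2 together, and Hist1h4d 0.0791 without these. In shCBX7 against shCTR, Hist4h4 became 0.0154 with no low-count filter, 0.0403 with unstranded counts and 0.214 without shCTR 1 and 2 together, and Hist2h4 became 0.0321, 0.0554 and 0.0914 there. With 1 library left out, estimates ran from -0.14 to 0.303 for Hist1h1c and from -0.0561 to 0.0448 for Hist1h2be (shCBX8 against shCTR), from -0.198 to 0.162 for Hist4h4 and from -0.146 to 0.0364 for Hist2h4 (shCBX7 against shCTR), and from -0.0056 to 0.284 for Hist1h4h (shCBX8 against shCBX7). Depth limits the genes below about 1 CPM, and shared sequence those with near-identical copies.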

Other observations

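Histone genes outside the clusters, which are expressed through the cell cycle and carry poly(A) tails, changed in both directions in shCBX8 against shCTR. Of 12 variant histone genes, 11 were tested, 2 rose (18.2%, against 17.0% of all genes) and 4 fell (36.4%, against 15.9%). H2afz, which encodes H2A.Z, rose from 48.0 ± 4.5 CPM (SD, n = 4) to 88.6 ± 19.0 CPM (SD, n = 3), by 0.89 on the log2 scale (SE 0.16, adjusted p = 0.0048 by edgeR). H2afy, which encodes macroH2A1, rose by 0.84 (SE 0.16, adjusted p = 0.0065), whereas its relative H2afy2 (macroH2A2) fell by 1.67 (SE 0.33, adjusted p = 0.0073). H3f3a, a gene for H3.3, fell from 113 ± 21.7 to 64.5 ± 6.65 CPM, by 0.81 (SE 0.19, adjusted p = 0.0119), and H3f3b, the other gene for H3.3, fell by 0.33 (SE 0.11, adjusted p = 0.0496).

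Of 21 histone chaperone genes, 5 rose (23.8%, against 17.0% of all genes) and 1 fell (4.76%, against 15.9%) in the same comparison. Npm1, a nucleolar chaperone, rose from 506 ± 108 CPM (SD, n = 4) to 1004 ± 128 CPM (SD, n = 3), by 0.99 (SE 0.20, adjusted p = 0.0085 by edgeR). Hat1, the enzyme that acetylates new H4, rose by 0.69, and Supt16, a subunit of FACT, by 0.47. Hjurp, which loads the centromeric H3 variant, fell by 0.54. In shCBX7 against shCTR 0 genes of either list passed by edgeR. At an unadjusted p below 0.05, 1 variant histone gene was higher and 1 lower (9.09% each). At that level 1 chaperone gene was higher (4.76%) and 0 lower. Of all genes, 1.01% were higher and 4.84% lower.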
